A study of Homo sapiens with 9 samples.

Results

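The transcription factors that set up the bile duct and liver lineages were followed in HuCCT1, an established human line grown from bile duct cancer (cholangiocarcinoma). The factors are SOX9, SOX4, HNF4A, ONECUT1, ONECUT2, FOXA1, FOXA2 and GATA6, and every probe set that the platform annotation pairs with one of these symbols alone was taken. This gave 21 probe sets of 7 genes, out of 54613 probe sets and 19775 genes in all; HNF4A was not analysed here. Total RNA was hybridised to 9 single-colour arrays. Of these, 5 carried RNA of cells transfected to overexpress YAPS127A, and 4 carried RNA of cells that received the empty vector. YAPS127A is a constitutively active form of the transcriptional co-activator YAP1, which lacks a serine that the Hippo pathway uses to hold the protein in the cytoplasm. The samples of a group are numbered, but the labels do not say whether each had its own culture. All p-values thus rest on the spread among these samples, and that spread may be technical.

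In the developing liver, SOX9 marks the ductal plate, the sheet of cells from which bile ducts form, and in mice SOX4 acts beside it in duct formation. ONECUT1 and ONECUT2 are cut-homeodomain factors that, in mice, govern how bipotent liver progenitors divide into hepatocytes and cholangiocytes, the epithelial cells of bile ducts. FOXA1 and FOXA2 are forkhead pioneer factors that open chromatin for liver genes, GATA6 is a zinc finger factor of the liver bud, and HNF4A directs the hepatocyte programme. YAP itself has no DNA-binding domain and reaches DNA through TEAD factors.

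In YAPS127A cells, FOXA1 and SOX4 had lower signals than in empty vector cells, and ONECUT2 had lower signals at 3 dim probe sets of 5. SOX9 had a slightly lower signal at 1 of its probe sets, and FOXA2, GATA6 and ONECUT1 did not pass the test. FOXA1 was 2.87-fold lower at its brighter probe set. SOX4 was between 1.78-fold and 1.97-fold lower at 5 of 6 probe sets, and ONECUT2 was between 2.11-fold and 3.39-fold lower at 3 of 5. The brightest ONECUT2 probe set did not pass. The 3 that passed had mean YAPS127A signals under each array's lower quartile (4.24 to 4.27). Of the 21 probe sets, 10 fell, 0 rose and 11 did not pass in limma with Benjamini-Hochberg adjustment over all probe sets at a threshold of 0.05. Over all probe sets, 23.9% passed, with 12% lower and 11.9% higher. Falls of at least 1.5-fold made up 9 of the 21 and 3.76% of all probe sets. The groups did not overlap at 10 of the 21, against 22.3% of all probe sets in either direction and 11% in the lower direction. Among the members above the median signal 7 of 13 fell (18.9% of all such probe sets), and among the dimmer ones 3 of 8 fell (5.12%). Of the 10 member probe sets that fell, SOX4 gave 5 and ONECUT2 gave 3, and probe sets of the same gene are not independent. Of the 7 genes, 4 had at least 1 lower probe set, and the share of all genes with any lower probe set was not computed. At the brightest probe set SOX9, SOX4 and FOXA1 were lower, against 14.2% of all genes. The 7 genes are a list chosen with results of these arrays known, so their counts are a description. A lower signal can come from less RNA per cell or from fewer cells that make the RNA, and bulk RNA cannot tell these apart.

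The regions just upstream of the start sites are shown for the 3 genes with the largest falls, as context for factors that bind there. They hold the 250 bases before the annotated start, from the RefSeq promoter table of build GRCh38.p14, which has a window for 5 of the 7 measured genes. They are written 5′ to 3′ on the strand of the gene, and capitals mark matches to 5 short motifs searched on both strands.
FOXA1, chr14:37595250-37595499, minus strand: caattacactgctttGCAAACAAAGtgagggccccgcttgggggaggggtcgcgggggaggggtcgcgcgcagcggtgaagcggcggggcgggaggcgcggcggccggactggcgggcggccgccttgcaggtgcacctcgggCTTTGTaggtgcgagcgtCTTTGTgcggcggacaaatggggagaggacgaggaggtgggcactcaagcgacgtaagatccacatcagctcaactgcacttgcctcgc
SOX4, chr6:21593501-21593750, plus strand: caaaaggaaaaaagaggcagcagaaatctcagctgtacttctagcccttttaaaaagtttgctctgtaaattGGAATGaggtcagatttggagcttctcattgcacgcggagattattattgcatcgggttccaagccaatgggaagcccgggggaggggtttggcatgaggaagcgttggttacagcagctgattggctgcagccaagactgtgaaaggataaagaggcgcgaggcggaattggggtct
ONECUT2, chr18:57435124-57435373, plus strand: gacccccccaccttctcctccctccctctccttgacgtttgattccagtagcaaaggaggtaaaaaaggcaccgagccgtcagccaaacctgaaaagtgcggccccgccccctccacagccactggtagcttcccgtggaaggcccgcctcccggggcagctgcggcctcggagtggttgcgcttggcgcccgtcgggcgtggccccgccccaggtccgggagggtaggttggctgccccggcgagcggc
The motifs were GGAATG for TEAD factors, ACAAAG for SOX factors, TGTTTNC for forkhead factors, ATTGAT for ONECUT factors and AGATAA for GATA factors. The FOXA1 window held 3 matches to the SOX motif and 1 to the forkhead motif. The forkhead match lies 235 to 229 bases before the start and overlaps a SOX match at 231 to 226 bases, so they stand above as a single run of capitals. The SOX4 window held 1 TEAD match, 178 to 173 bases before the start. The ONECUT2 window held 0 matches to any of the 5 motifs, as did the windows of ONECUT1 and GATA6. Of 35116 windows of the same length, 11.9% held the TEAD motif, 13.7% the SOX motif, 15.5% the forkhead motif, 5.58% the ONECUT motif and 9.17% the GATA motif. A match is a run of letters and not a shown binding site.

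**Figure D1:**
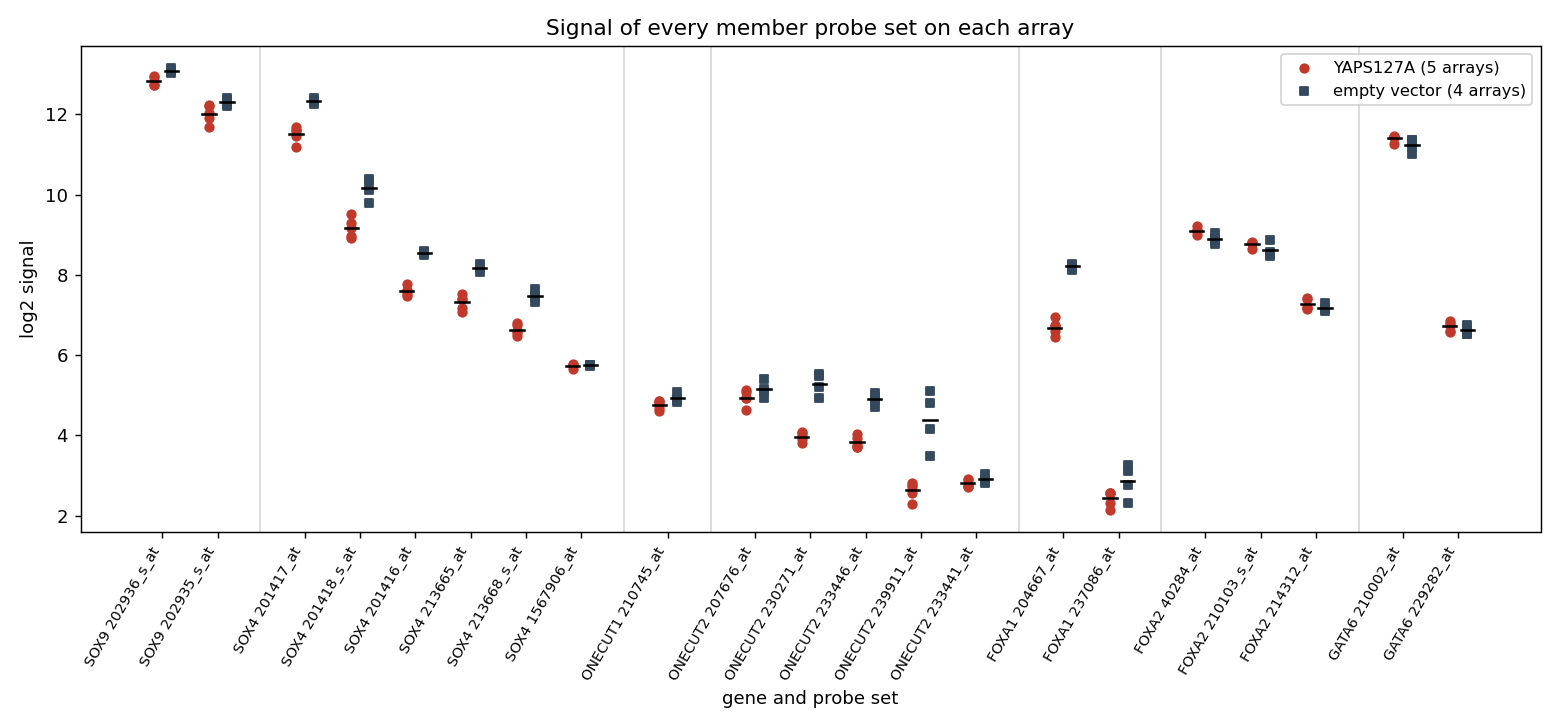
Log2 signal (y axis) of each of the 21 probe sets (x axis), with a circle for each YAPS127A array, a square for each empty vector array and a bar at the group mean. At the brighter FOXA1 probe set, at 5 SOX4 probe sets and at 3 ONECUT2 probe sets, every YAPS127A array lies below every empty vector array.

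FOXA1 had the largest difference among the brightest probe sets of the 7 genes. Its probe set 204667_at had log2 signals of 6.59, 6.44, 6.95, 6.74 and 6.72 in YAPS127A cells, against 8.26, 8.13, 8.18 and 8.28 in empty vector cells. The highest YAPS127A array thus lay more than a log2 unit below the lowest empty vector array, and the groups did not overlap. The means were 6.69 ± 0.19 (SD, n = 5) with YAPS127A and 8.21 ± 0.07 (SD, n = 4) with the empty vector, a difference of -1.52 (SE 0.09, adjusted p = 4.72e-07 in limma). The exact permutation test over arrays gave p = 0.00794, which is the smallest p that groups of 5 and 4 allow and is 2-sided. The other FOXA1 probe set, 237086_at, was dim, with signals of 2.57, 2.57, 2.33, 2.15 and 2.57 with YAPS127A, against 2.31, 3.10, 2.77 and 3.26 with the empty vector. Those signals are under each array's lower quartile (4.24 to 4.27), and the same value stands on 3 arrays. Its groups overlapped, and the difference of -0.43 (SE 0.17) did not pass (adjusted p = 0.0984 in limma). It passed without empty vector replicate 1, at -0.61 (adjusted p = 0.00727 in limma). Averaged over both probe sets, FOXA1 was lower by a log2 difference of -0.98.

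The paralog FOXA2, which acts with FOXA1 in liver specification, did not pass at any of its 3 probe sets. The brightest, 40284_at, had signals of 9.21, 9.10, 9.10, 8.99 and 9.12 in YAPS127A cells, against 8.93, 8.86, 9.05 and 8.78 in empty vector cells. The groups overlapped slightly, since empty vector replicate 3 reached the YAPS127A range. The difference was +0.20 (SE 0.07, adjusted p = 0.0650 in limma), and it passed without empty vector replicate 3 (+0.25, adjusted p = 0.0285 in limma). It also passed in a fit without dim probe sets (adjusted p = 0.0330), with array weights (adjusted p = 0.0468) and with the actin gap, a measure of RNA quality, as a covariate (adjusted p = 0.0197). The other probe sets differed by +0.15 (210103_s_at, adjusted p = 0.264) and +0.09 (214312_at, adjusted p = 0.479), and without empty vector replicate 3 the difference at 210103_s_at was +0.23 (adjusted p = 0.0314). Genes near FOXA2 on chromosome 20 lay higher by a median of 0.09, and with that median subtracted the 3 probe sets were at +0.11, +0.05 and -0.00400, with the lowest adjusted p at 0.318.

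The unequal change of FOXA1 and FOXA2 was described as the difference of their log2 signals on each array. FOXA1 minus FOXA2 averaged -2.41 ± 0.22 (SD, n = 5) with YAPS127A and -0.69 ± 0.15 (SD, n = 4) with the empty vector, a change of -1.72 (exact permutation p = 0.00794, adjusted p = 0.00952 over 6 paralog comparisons). With the mean over all probe sets of each gene the change was -1.12, with the same p-values. At its brightest probe set FOXA2 spanned 8.78 to 9.21 over all arrays, and the FOXA1 groups lay farther apart than that. The permutation p there was thus fixed once the FOXA1 fall was seen. The 6 comparisons reuse signals read for the single genes, so their p-values give no separate support. A level of a probe set cannot be set against that of another, so only the change between the groups is read here.

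SOX4, an HMG-box factor, fell at 5 of its 6 probe sets. The brightest, 201417_at, had signals of 11.61, 11.18, 11.45, 11.59 and 11.68 in YAPS127A cells, against 12.25, 12.42, 12.33 and 12.33 in empty vector cells. Every YAPS127A array lay below every empty vector array. The means were 11.50 ± 0.20 (SD, n = 5) with YAPS127A and 12.33 ± 0.07 (SD, n = 4) with the empty vector, a difference of -0.83 (SE 0.10, adjusted p = 7.18e-05 in limma). The tightest of the 5, 201416_at, averaged 7.60 ± 0.11 (SD, n = 5) with YAPS127A and 8.55 ± 0.04 (SD, n = 4) with the empty vector, a difference of -0.95 (SE 0.07, adjusted p = 1.79e-06 in limma). The probe sets 201418_s_at, 213665_at and 213668_s_at differed by -0.98, -0.87 and -0.84, with no overlap between groups. The sixth, 1567906_at, was at 5.74 ± 0.06 (SD, n = 5) with YAPS127A and 5.75 ± 0.02 (SD, n = 4) with the empty vector. Its signal lies below the median of all probe sets (5.96), and 4 of the 9 arrays hold the same value. It did not pass (-0.01, adjusted p = 0.963), and the stretch of transcript it reads is not known here.

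SOX9, the HMG-box factor that marks bile duct cells, had high signals in both groups and a small difference. At 202936_s_at they were 12.74, 12.73, 12.95, 12.84 and 12.93 in YAPS127A cells, against 13.16, 13.12, 13.08 and 13.03 in empty vector cells. The groups did not overlap, and YAPS127A replicate 3 and empty vector replicate 4 were the nearest arrays. The difference was -0.25 (SE 0.07, adjusted p = 0.0182 in limma), or 1.19-fold lower. At 202935_s_at the signals were 11.91, 11.68, 12.24, 12.04 and 12.20 with YAPS127A, against 12.40, 12.37, 12.26 and 12.21 with the empty vector. Here YAPS127A replicate 3 lay above empty vector replicate 4, and the difference of -0.30 (SE 0.11) did not pass (adjusted p = 0.0715 in limma).

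The SOX9 call was not firm. It held in 15 of 19 alternatives, among them the mean over both probe sets (-0.28, adjusted p = 0.0200 in limma over genes). Without empty vector replicate 1 the brighter probe set was at -0.23 (adjusted p = 0.0573). It also lost the call when both arrays with the largest actin gap, empty vector replicate 3 and YAPS127A replicate 1, were left out (-0.24, adjusted p = 0.0631). The dimmer of the pair passed without YAPS127A replicate 3 (-0.35, adjusted p = 0.0371), with quantile normalization (-0.31, adjusted p = 0.0498), with trend and robust eBayes (adjusted p = 0.0397) and in a fit without dim probe sets (adjusted p = 0.0431). The 50 nearest measured genes around SOX9 on chromosome 17 lay lower by a median of 0.12, as a log2 difference of -0.12. Per array that median was taken over deviations of each gene from its empty vector mean. It lay between -0.18 and -0.09 with YAPS127A and between -0.0061 and 0.0058 with the empty vector. The centring itself holds the empty vector arrays near 0, so the gap between the groups was not tested. With that median subtracted, the brighter SOX9 probe set was at -0.13 and did not pass (adjusted p = 0.244). SOX4 minus SOX9 changed by -0.58 between the groups at the brightest probe sets (exact permutation p = 0.00794, adjusted p = 0.00952) and by -0.47 over the means of their probe sets, with the same p-values.

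**Figure D2:**
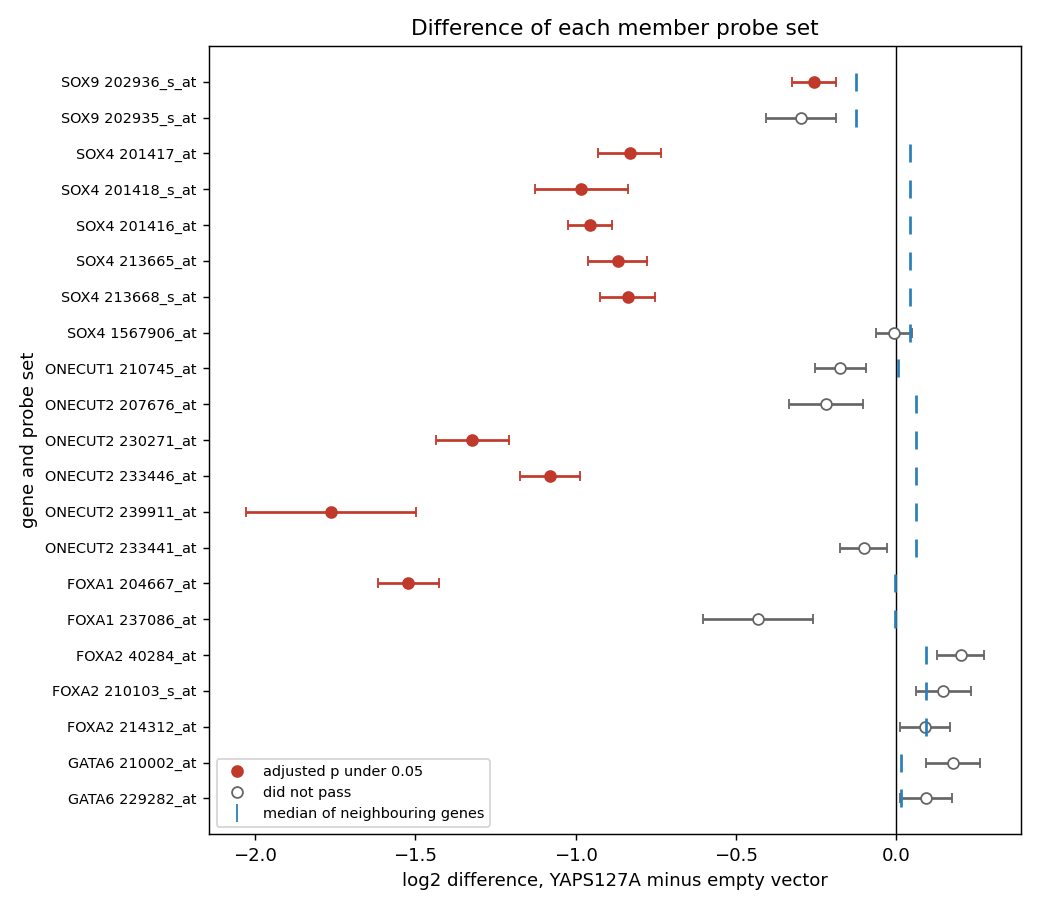
Log2 difference, YAPS127A minus empty vector (x axis), of each probe set (y axis) with its standard error as a bar. Filled points passed limma at an adjusted p under 0.05 and open points did not. Blue ticks give the median difference of up to 50 neighbouring genes, from -0.12 at SOX9 to 0.09 at FOXA2, far from the points of FOXA1, SOX4 and ONECUT2 that passed.

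ONECUT2, a cut-homeodomain factor of biliary and hepatic progenitors, fell at 3 probe sets and did not pass at 2. At 230271_at the signals were 3.90, 3.80, 4.05, 4.08 and 3.99 in YAPS127A cells, against 5.52, 5.47, 4.94 and 5.21 in empty vector cells. The groups were well apart, and the difference was -1.32 (SE 0.11, adjusted p = 6.82e-06 in limma). At 233446_at the means were 3.83 ± 0.15 (SD, n = 5) with YAPS127A and 4.91 ± 0.15 (SD, n = 4) with the empty vector (-1.08, SE 0.09, adjusted p = 6.66e-06 in limma). The probe set 239911_at had signals of 2.56, 2.81, 2.30, 2.76 and 2.71 with YAPS127A, against 4.81, 3.48, 5.10 and 4.17 with the empty vector. The empty vector arrays spread widely there, so its difference of -1.76 had the largest error of the members (SE 0.27, adjusted p = 0.000445 in limma). At these 3 probe sets the mean YAPS127A signal was under each array's lower quartile (4.24 to 4.27), and the part of background in the size of the falls was not tested.

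The brightest ONECUT2 probe set, 207676_at, behaved otherwise. Its signals were 5.13, 4.63, 4.93, 4.93 and 5.08 with YAPS127A, against 4.94, 5.17, 5.11 and 5.42 with the empty vector, and the groups overlapped. The difference of -0.22 (SE 0.12) did not pass (adjusted p = 0.219 in limma). The fifth, 233441_at, was at 2.80 ± 0.10 (SD, n = 5) with YAPS127A and 2.90 ± 0.09 (SD, n = 4) with the empty vector, and did not pass either (-0.10, adjusted p = 0.386). The mean of all 5 gave a difference of -0.90 (adjusted p = 9.89e-07 in limma over genes), so the call for the gene depends on the probe sets taken.

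ONECUT1, the related factor also known as HNF6, has 1 probe set, 210745_at, with a signal below the median of all probe sets. It read 4.85, 4.60, 4.81, 4.67 and 4.85 in YAPS127A cells, against 4.83, 4.90, 4.91 and 5.09 in empty vector cells. The groups overlapped, and the difference of -0.17 (SE 0.08) did not pass (adjusted p = 0.145 in limma, exact permutation p = 0.0476). ONECUT2 minus ONECUT1 changed by -0.04 at the brightest probe sets (exact permutation p = 0.548, adjusted p = 0.548) and by -0.72 with the means over probe sets (exact permutation p = 0.00794, adjusted p = 0.00952), so an unequal change of this pair rests on the 3 dimmer probe sets of ONECUT2.

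GATA6, a zinc finger factor of foregut endoderm, did not pass at either probe set. At 210002_at its signals were 11.44, 11.44, 11.45, 11.27 and 11.45 in YAPS127A cells, against 11.19, 11.01, 11.36 and 11.36 in empty vector cells. YAPS127A replicate 4 lay within the empty vector range. The difference was +0.18 (SE 0.08, adjusted p = 0.161 in limma), and at 229282_at it was +0.09 (SE 0.08, adjusted p = 0.473 in limma).

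Other transcription factors of liver, bile duct and foregut development moved in both directions. Of 28 listed, 24 were measured, each at its brightest probe set. There were 6 that fell, 3 that rose and 15 that did not pass, against 14.2% lower and 14.5% higher among all genes (28.7% called in all). The others were not used here. The median difference of the list was -0.02, against 0.00477 over all genes. The nuclear receptor gene NR5A2 averaged 5.11 ± 0.25 (SD, n = 5) with YAPS127A and 7.86 ± 0.40 (SD, n = 4) with the empty vector, a difference of -2.75 (SE 0.18, adjusted p = 6.80e-07 in limma), with 3 of its 4 probe sets lower. HNF4G, the close relative of HNF4A, averaged 5.10 ± 0.13 (SD, n = 5) with YAPS127A and 6.64 ± 0.03 (SD, n = 4) with the empty vector (-1.54, SE 0.08, adjusted p = 7.06e-08 in limma), with 1 of its 2 probe sets lower. Averaged over their probe sets, NR5A2 and HNF4G were at -1.58 and -0.86. TBX3, a T-box factor of liver progenitors, fell by 0.55, with 4 of 7 probe sets lower and -0.35 as their mean.

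The other genes that fell in this list were FOXA3 (-0.59, adjusted p = 0.000131), the third FOXA gene, the Notch target HES1 (-0.49, adjusted p = 0.0161) and CEBPB (-0.27, adjusted p = 0.00667), a leucine zipper factor. HES1 lost the call without empty vector replicate 1 (-0.44, adjusted p = 0.0532) and without both arrays with the largest actin gap (-0.49, adjusted p = 0.0604), and averaged over its probe sets it was at -0.28. PPARA, the receptor that drives fatty acid oxidation in hepatocytes, rose by 1.09 (SE 0.08, adjusted p = 1.23e-06 in limma), with 8 of 9 probe sets higher and 0.69 averaged over them. KLF5 rose by 0.28 and ZHX2 by 0.25, but ZHX2 lost its call when averaged over its probe sets (0.13, adjusted p = 0.244) and without empty vector replicate 2 or 3 or YAPS127A replicate 2 or 3 (0.20 to 0.25). With the median of its neighbours (-0.30) subtracted ZHX2 was at 0.55 and passed (adjusted p = 0.000375). The neighbours of KLF5 lay higher by 0.39, and with that median subtracted it was at -0.11 (adjusted p = 0.209). The neighbours of HNF4G, NR5A2 and PPARA differed by -0.34, -0.26 and +0.32, and with those medians subtracted the genes were at -1.20, -2.49 and 0.77 and still passed.

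**Figure D3:**
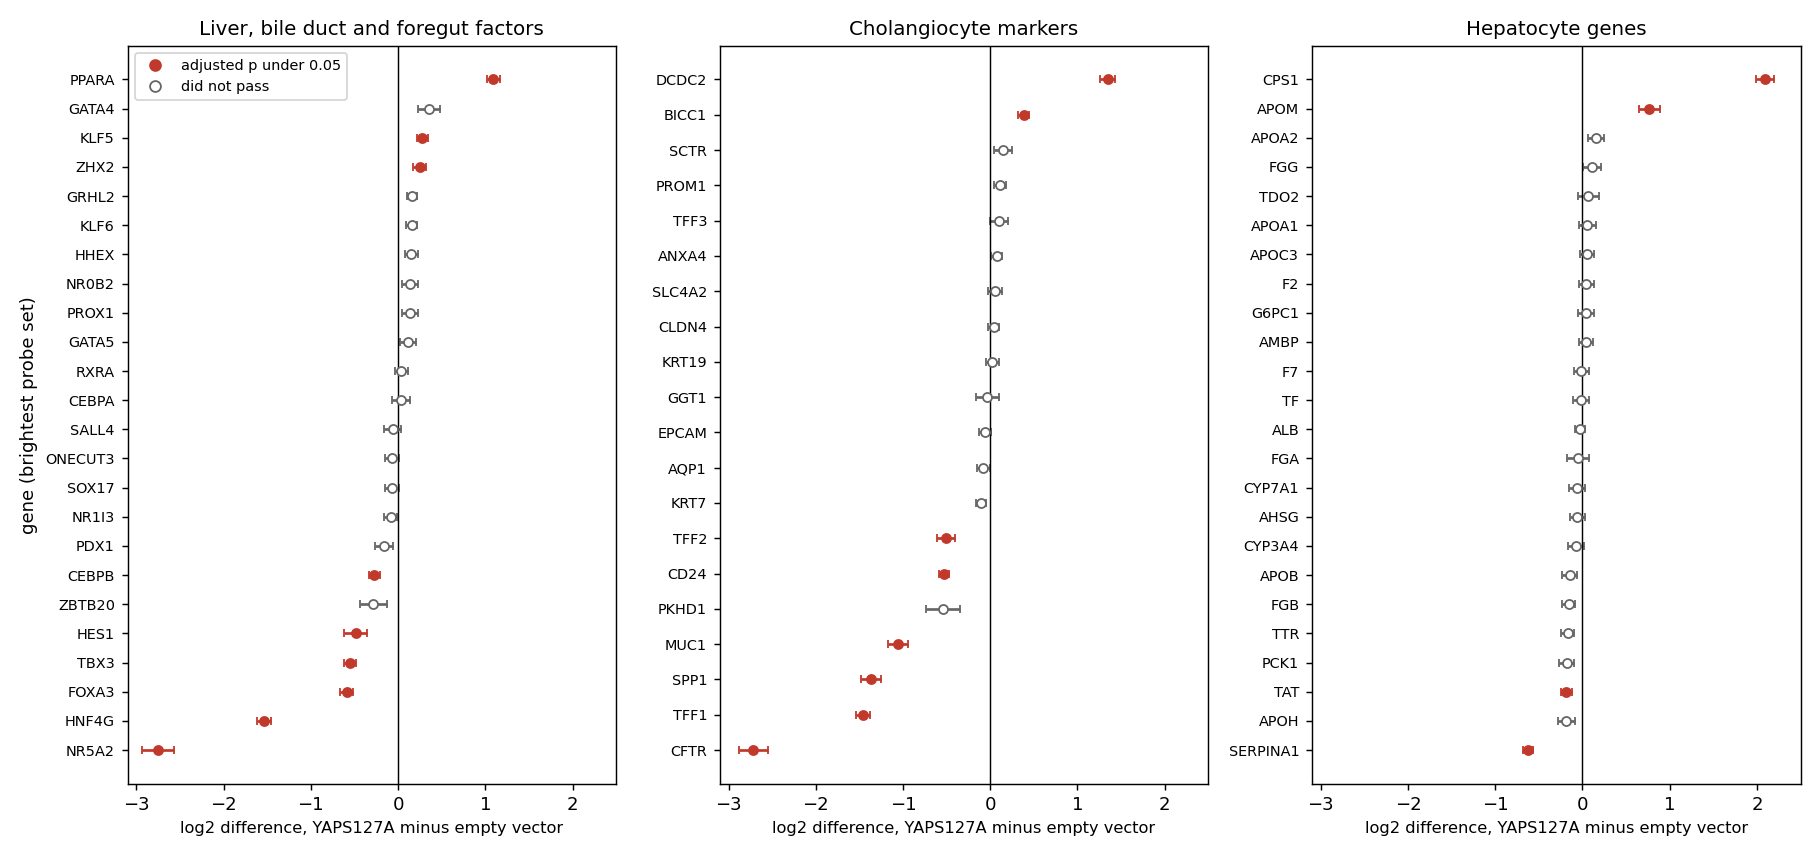
Log2 difference, YAPS127A minus empty vector (x axes), with its standard error, for genes of 3 lists (y axes) at their brightest probe set. Filled points passed limma at an adjusted p under 0.05, and most genes of each list are open points near 0. NR5A2 (-2.75) and CFTR (-2.72) lie farthest to the left and CPS1 (2.09) farthest to the right.

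Genes of cholangiocytes and hepatocytes were read as counts beside the shares over all genes given above. KRT19, a keratin of bile duct cells, averaged 14.21 ± 0.10 (SD, n = 5) with YAPS127A and 14.19 ± 0.10 (SD, n = 4) with the empty vector, and KRT7 averaged 13.49 ± 0.05 (SD, n = 5) with YAPS127A and 13.60 ± 0.04 (SD, n = 4) with the empty vector. KRT7 did not pass (-0.11, adjusted p = 0.203), although trend and robust settings brought its adjusted p to 0.0340. Of 21 cholangiocyte markers, 20 were measured, of which 6 fell, 2 rose and 12 did not pass, against 14.2% lower and 14.5% higher among all genes. Their median was -0.05, and 7 of the 20 lay below the median signal of all probe sets. The chloride channel gene CFTR differed by -2.72, and by -0.97 averaged over its probe sets, of which 3 of 6 were lower. Its mean YAPS127A signal of 4.02 was under each array's lower quartile (4.24 to 4.27), and the part of background was not tested. The other falls were -1.46 for TFF1 and -0.51 for TFF2, which encode trefoil factors, -1.37 for the phosphoprotein gene SPP1, -1.06 for the mucin gene MUC1 and -0.53 for CD24. CD24 was at -0.83 averaged over its 6 probe sets and at -0.25 with the median of its neighbours (-0.29) subtracted, and it passed in both. DCDC2, a microtubule-binding protein of cilia, rose by 1.34 (SE 0.09, adjusted p = 6.09e-07 in limma), with 1 of its 2 probe sets called and a mean over both of 0.61. BICC1, an RNA-binding protein, rose by 0.38, and with the median of its neighbours (0.30) subtracted it was at 0.09 and did not pass (adjusted p = 0.348).

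Hepatocyte genes were mostly dim, as 18 of the 24 lay below the median of all probe sets. ALB, which encodes albumin, averaged 4.23 ± 0.01 (SD, n = 5) with YAPS127A and 4.26 ± 0.06 (SD, n = 4) with the empty vector, about the lower quartile of the arrays. Of the 24, 2 rose, 2 fell and 20 did not pass, with a median of -0.02, against 28.7% called among all genes. The urea cycle gene CPS1 rose by 2.09 and APOM, an apolipoprotein, by 0.77, while the protease inhibitor gene SERPINA1 fell by 0.62 and TAT, a tyrosine-degrading enzyme, had a difference of -0.18. TAT lost its call under 13 of the 19 alternatives, among them without each of 8 single arrays (-0.20 to -0.16), and averaged over its probe sets it was at -0.018. With the median of its neighbours (+0.40) subtracted it was at -0.58 and passed (adjusted p = 2.66e-05).

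Among 16 other SOX genes, 3 fell, 0 rose and 13 did not pass, with a median of -0.00246, against 14.2% lower and 14.5% higher among all genes. SOX30 was at -0.72 (adjusted p = 0.000106), SOX13 at -0.29 (adjusted p = 0.00553) and SOX7 at -0.29 (adjusted p = 0.0106), while SOX14 differed by +0.19 (adjusted p = 0.225). SOX13 lost its call once the median of its neighbours was subtracted (-0.11, adjusted p = 0.249), and SOX7 without both arrays with the largest actin gap (-0.24, adjusted p = 0.0608). Of 12 cartilage genes that SOX9 activates in chondrocytes, 0 were called in limma, the median was 0.03 and 9 lay below the median of all probe sets. The lowest p-values there were those of COL11A1 (+0.23, adjusted p = 0.0559), COL9A3 (+0.22, adjusted p = 0.113), COL9A2 (+0.14, adjusted p = 0.376) and MIA (+0.11, adjusted p = 0.398). COL11A1 was called higher without empty vector replicate 1 or 3 (0.27 and 0.28) and with array weights (0.25), and differed by -0.15 with its neighbours' median subtracted.

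The genes whose profile over the 9 arrays was most like that of FOXA1 were sought among 19774 others at their brightest probe set. The highest Pearson correlations were those of RNFT1 (0.994), LRRN1 (0.994) and RPRD1A (0.993), and the lowest those of CLUAP1 (-0.995), EPAS1 (-0.994) and PACSIN2 (-0.994). The correlations describe 9 arrays that fall into groups of 5 and 4 and mostly carry the group difference: 466 genes had a correlation above 0.95 and 762 below -0.95. LRRN1, for example, averaged 7.21 ± 0.26 (SD, n = 5) with YAPS127A and 11.44 ± 0.11 (SD, n = 4) with the empty vector.

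Measures of the arrays and of other cell types were as follows. Median log2 signals of the 9 arrays were 5.95 to 5.97. The gap between 3′ and 5′ actin probe sets, a sign of RNA quality, was 0.888 to 1.58 with YAPS127A and 0.985 to 1.69 with the empty vector (exact permutation p = 0.444). YAP1 was at 12.71 ± 0.07 (SD, n = 5) with YAPS127A and 12.56 ± 0.06 (SD, n = 4) with the empty vector at its brightest probe set (+0.15, adjusted p = 0.121 in limma, and 0.0337 with trend and robust eBayes). Whether its probe sets can read the construct is not known, so they do not check the labels. Of 8 fibroblast markers, LUM rose by 1.45 (0.94 averaged over its probe sets), COL1A1 fell by 0.70 (-0.40 averaged) and 6 did not pass, among them COL1A2 (+0.12) and PDGFRB (+0.10). Their summed linear signal was 728 to 979 with YAPS127A and 624 to 704 with the empty vector. Of 6 endothelial markers 0 were called, among them TEK (+0.34), CDH5 (+0.11), KDR (-0.10) and CLDN5 (+0.09), with sums of 231 to 266 with YAPS127A and 204 to 258 with the empty vector. TEK passed without YAPS127A replicate 2 (0.43, adjusted p = 0.0190). Of 4 leukocyte markers used, CD14 fell by 0.45, and CD3E (+0.20), CSF1R (-0.04) and PTPRC (-0.02) did not pass, with sums of 100.3 to 112 with YAPS127A and 119 to 134 with the empty vector. Below the median signal of all probe sets lay 6 of the 8 fibroblast, 4 of the 6 endothelial and all 4 leukocyte markers. Among all genes 28.7% were called, and whether such cells were present was not tested. The part of these measures in the members' differences was not tested, except that FOXA1, the 5 SOX4 and the 3 ONECUT2 probe sets kept their calls with the actin gap as a covariate.

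**Figure D4:**
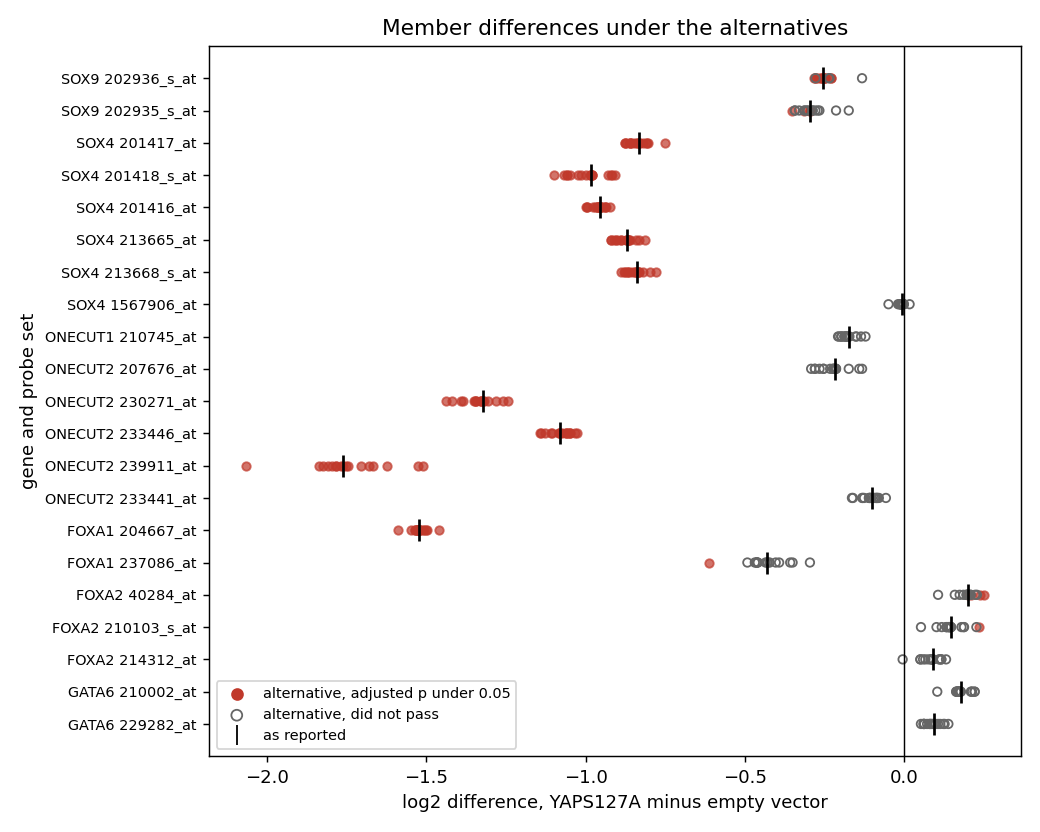
Log2 difference, YAPS127A minus empty vector (x axis), of each probe set (y axis) as reported (black tick) and under the alternatives (points, filled where the adjusted p was under 0.05). The mean over probe sets is not drawn. FOXA1 204667_at, 5 SOX4 and 3 ONECUT2 probe sets stay filled wherever they were tested, and SOX9 202936_s_at has both kinds of point.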

How the data were processed

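Total RNA of HuCCT1 cells was measured on 9 single-colour arrays, 5 with YAPS127A and 4 with the empty vector, as the titles name them. As deposited, each value is a log2 signal of a probe set, judged from their range and their nearly equal medians, since no header states a unit. How the authors normalized and summarised them is not given in the sources read here, and no further scaling was applied. The medians of the arrays are nearly equal, so differences are relative to the bulk of the probe sets. Whether a between-array normalization made them so is not known. In 45.4% of probe sets at least 2 arrays hold the same value, including 4 of the 21 member probe sets. There were 0 columns of other samples.

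The fit covered 54613 probe sets, without 62 controls. The platform annotation, which can be old, gives 1 gene to 41091 of them, several to 1801 and no gene to 11721. Names were brought up to date through gene IDs in the RefSeq table of GRCh38.p14, and a gene outside the members was read at its brightest probe set. The comparison used lmFit and eBayes of limma 3.58.1 under R 4.3.3, with 11.4 total degrees of freedom. Benjamini-Hochberg adjustment ran over all probe sets, and the threshold was 0.05. Single values were compared by 2-sided exact permutation over the 126 splits of the arrays. The neighbours of a gene are up to 50 genes with a signal above the median on the same chromosome, nearest in order. Their median was taken on each array over deviations from the empty vector mean of each gene.

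The rule for named genes takes every member probe set, YAP1, up to 4 genes of each list with the lowest p-values, and the 3 genes at each end of likeness to FOXA1. Named after their values were seen were FOXA3, CEBPB, HES1, KLF5, ZHX2, MUC1, TFF2, CD24, BICC1, KRT7, KRT19 and ALB. The antisense genes GATA6-AS1, SOX9-AS1 and HNF4A-AS1 were also added after values were seen. Members and lists were chosen with earlier results of these data known.

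The fit was tested on simulated data with independent noise and 50 changed probe sets of each size. It recovered 10% of log2 changes of 0.25, 42% of 0.5, 82% of 1 and 100% of 2. A member that did not pass may thus still differ by a small amount. Far more probe sets were called in the real data, so these shares are only a guide. The alternatives were quantile normalization, median centring, leaving out dim probe sets, trend and robust eBayes, array weights, a block for replicate number, the actin gap as a covariate, the neighbours' median subtracted, each array left out and the mean over probe sets. Leaving out both arrays with the largest actin gap was chosen after seeing the data. Plots came from matplotlib 3.10.9 under Python 3.11.15.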

Additional observations from a re-analysis of the deposited data

Results flagged for a closer look

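Among 144 groups of 4 or 5 arrays examined for the members, YAP1 and the named list genes, 7 held an array far from the others of its group, and chance alone marks about 1 in 20 groups. Among the members, SOX4 1567906_at read 5.65 in YAPS127A replicate 2, against 5.75 to 5.79 in the other YAPS127A arrays. FOXA2 210103_s_at read 8.64 in YAPS127A replicate 3, against 8.79 to 8.83 in the others. GATA6 210002_at read 11.27 in YAPS127A replicate 4, against 11.44 to 11.45 in the others. In the lists, COL9A3 and MIA were high in YAPS127A replicate 2, at 6.76 (others 6.37 to 6.41) and 7.92 (others 7.80 to 7.82). TFF1 was low in empty vector replicate 1, at 7.45 (others 7.74 to 7.80), and COL1A2 was low in empty vector replicate 2, at 4.01 (others 4.52 to 4.62).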

How the results depend on the processing

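FOXA1 204667_at and the called SOX4 and ONECUT2 probe sets kept their direction and their call in every alternative in which they were tested. FOXA1 ranged from -1.59 to -0.98, the last as the mean over probe sets, and ONECUT2 239911_at from -2.07 to -1.51. Leaving out 1 array at a time gave 10 to 11 member probe sets lower and 0 to 2 higher, and leaving out both arrays with the largest actin gap gave 9 and 0. The count higher was 1 when dim probe sets were left out, with array weights and with the actin gap as a covariate. The cause was not tested. The values gave no sign that the replicate numbers pair the samples. Deviations of same-numbered arrays correlated between -0.25 and 0.04, and 0 of 4 empty vector arrays matched their own number best. The labels do not say whether same-numbered samples belong together, and weak correlations cannot exclude it. With the replicate block, 10306 probe sets passed in all, 9 member probe sets were lower, SOX9 202936_s_at was at -0.28 (adjusted p = 0.0571) and HES1 (-0.41), KLF5 (0.26), ZHX2 (0.25) and TAT (-0.18) did not pass. The sign of small differences turned in some settings. With the neighbours' median subtracted FOXA2 214312_at was at -0.00400, KLF5 at -0.11, COL11A1 at -0.15, CDH5 at -0.28 (adjusted p = 0.0284), CLDN5 at -0.030, YAP1 213342_at at -0.018, PTPRC at 0.26 (adjusted p = 0.0309) and CSF1R at 0.092. ISX passed there (-0.24, adjusted p = 0.0484). With the block PTPRC was at 0.013 and CSF1R at 0.023, with the actin gap KRT19 was at -0.030, and averaged over probe sets PTPRC was at 0.086. With 1 array left out, SOX4 1567906_at ranged from -0.018 to 0.018, KRT19 from -0.024 to 0.058, COL1A2 from -0.026 to 0.18, PTPRC from -0.055 to 0.017 and CSF1R from -0.093 to 0.024. PAX6 lost its call without empty vector replicate 4 (-0.31) and with the neighbours' median subtracted (-0.11). Among other lineage factors, 1 to 6 genes rose and 5 to 8 fell over all alternatives. The alternative of log2(value + 1) was not run, since the values were already on a log scale. Signals below the lower quartile limit what the dim probe sets can show.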

Other observations

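Of 16 factors of other epithelial lineages, 12 were measured, of which 2 fell, 0 rose and 10 did not pass, against 14.2% lower and 14.5% higher among all genes. The median difference of the 12 was -0.01, and 8 of them lay below the median of all probe sets. KLF4, a zinc finger factor of epithelial differentiation, averaged 9.05 ± 0.07 (SD, n = 5) with YAPS127A and 9.56 ± 0.23 (SD, n = 4) with the empty vector, a difference of -0.51 (SE 0.10, adjusted p = 0.00224 in limma). PAX6, a paired-box factor of endocrine pancreas and eye, was at -0.35 (adjusted p = 0.0163), with both of its 2 probe sets lower and -0.75 as their mean (adjusted p = 5.80e-06). ISX was at -0.14 (adjusted p = 0.222) and ATOH1 at +0.14 (adjusted p = 0.377). The others were not used here.

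The long non-coding gene GATA6-AS1, which lies beside GATA6 on the opposite strand, rose. GATA6 differed in the same direction without passing, at +0.14 averaged over its probe sets (adjusted p = 0.0531 in limma over genes). The signals of GATA6-AS1 were 8.40, 8.28, 8.26, 8.09 and 7.99 in YAPS127A cells, against 7.62, 7.50, 7.57 and 7.97 in empty vector cells. The groups did not overlap, although YAPS127A replicate 5 and empty vector replicate 4 nearly met. The difference was +0.54 (SE 0.11, adjusted p = 0.00349 in limma). GATA6-AS1 was added after its values were seen, and its call was not run under the alternatives. SOX9-AS1 differed by -0.25 at 230419_at (adjusted p = 0.200) and by -0.24 at 1564466_at (adjusted p = 0.260), and HNF4A-AS1 by -0.06 (adjusted p = 0.578).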
